A study of Mus musculus with 6 samples.

Results

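The 32 genes described here encode subunits of the Polycomb repressive complexes PRC1 and PRC2. They were matched by gene symbol, by a rule that uses no expression value, among the 24736 genes of an RNA-seq table of wild-type mouse cells. Embryonic stem cells (ESCs), the in vitro counterpart of the naive pluripotent epiblast, were compared with epiblast-like cells (EpiLCs), which model the epiblast after implantation. There were 3 biological replicates of each. The ESCs (0 h) had been kept in knockout DMEM with 10% serum and 1000 U/ml LIF, a cytokine that maintains pluripotency, and the culture methods of the study place them on feeder fibroblasts. These methods describe removal of the feeders by letting them settle on plastic before differentiation, and whether the 0 h cells went through that step is not given in the sources used here. The EpiLCs (48 h) had been differentiated in an N2/B27-based medium that held bFGF (10 ng/ml) together with LGK974 (5 µM), a compound that blocks secretion of WNT ligands. Both groups derive from the same XY mouse ESC line, named HM1 TetON, so the replicates are separate cultures of a single line and not separate animals.

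Polycomb complexes keep developmental genes silent in cells that do not use them. PRC2 methylates histone H3 on the lysine named H3K27 through EZH2 or EZH1, which work only with EED and SUZ12, and accessory proteins guide the complex to CpG-rich DNA. PRC1 ubiquitinates histone H2A through RNF2 or RING1 paired with a PCGF protein: the canonical forms carry a CBX protein that reads the PRC2 mark and a PHC protein that links complexes together, whereas the variant forms carry RYBP or YAF2 instead. In pluripotent cells the complexes sit on the promoters of lineage regulators.

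The libraries held between 16967741 and 35096210 expected counts, the read counts that RSEM estimates for each gene. In these libraries 3 counts correspond to between 0.0855 and 0.177 CPM (counts scaled to the library total), a floor for counting error only. The labels were checked against marker genes. The 8 naive ESC markers summed to between 1978 and 2630 TPM (transcript abundance scaled for transcript length and library) in the ESC libraries and to between 59.3 and 84.2 TPM in the EpiLC libraries, whereas the 6 EpiLC markers summed to between 301 and 408 TPM and to between 2167 and 2225 TPM. ESC replicate 2 stood apart by its fibroblast genes: the 16 fibroblast markers summed to 416, 1757 and 159 TPM in ESC replicates 1, 2 and 3 and to between 126 and 139 TPM in the EpiLC libraries, 15 of the 16 were highest in ESC replicate 2, and Lum was the only fibroblast marker at 0 in any library. The 5 primitive streak markers summed to 407, 163 and 124 TPM in ESC replicates 1, 2 and 3, so that ESC replicate 1 stood apart, and to 9.22, 8.15 and 62.0 TPM in EpiLC replicates 1, 2 and 3. Counts of subunits and of the gene lists are also given without both ESC replicate 2 and EpiLC replicate 3.

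All 32 subunits were detected well enough to be tested. The lowest expected count of any subunit in any library was 29, and 30 of the 32 had at least 100 counts in every library. In ESCs, 10 subunits lay above 100 TPM on average and 6 lay below 10 TPM, and 22 of the 32 lay above the median of all tested genes (15.3 TPM over the 6 libraries).

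Between ESCs and EpiLCs, 4 of the 6 transcripts of the PRC2 core fell, while PRC1 subunits changed in both directions, 5 higher and 5 lower. The abundant subunits Eed, Suz12, Rbbp7 and Mtf2 were between 1.52-fold and 2.02-fold higher in ESCs by edgeR's fit, and Cbx2, Cbx6 and Phc1 were between 1.40-fold and 2.15-fold higher in EpiLCs. The catalytic pair of PRC1, Rnf2 and Ring1, did not pass the test. By edgeR's quasi-likelihood test with a Benjamini-Hochberg adjusted p of at most 0.05, 16 of the 32 subunits were called. Since 45.4% of the 14468 genes tested were called in this comparison, the share among the subunits (50%) is near the background. Without EpiLC replicate 1, 5 subunits rose and 7 fell, and over all genes 2144 rose and 2100 fell of 14768 tested. Of the subunits, 6 rose (18.8%, against 22.6% of all genes tested) and 10 fell (31.2%, against 22.8%). In TPM, the EpiLC libraries all lay above the ESC libraries for 7 subunits (33.8% of all genes tested) and all below them for 10 (25.6%). The median log2 fold change was -0.11 over the subunits and -0.0017 over all genes tested. Changes were small: Cbx2 and Mtf2 alone passed an absolute log2 fold change of 1 in addition to the test, that is 2 of the 32, against 20.2% of all genes tested. Both lay close to this limit: Cbx2 was at 0.99 without ESC replicate 2 and at 0.93 without ESC replicate 2 and EpiLC replicate 3, Mtf2 was at -0.92 without ESC replicate 3, at -0.9992 without EpiLC replicate 1 and at -0.98 without EpiLC replicate 2, and Eed passed the limit without ESC replicate 1 (-1.07) or EpiLC replicate 3 (-1.03). Mtf2 was also inside the limit with upper-quartile normalization (-0.992) and with limma on TPM (-0.954 and -0.961), and Eed just passed it with DESeq2 size factors (-1.0003). In bulk RNA, fewer cells that express a gene and less RNA of that gene per cell cannot be told apart.

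**Figure D1:**
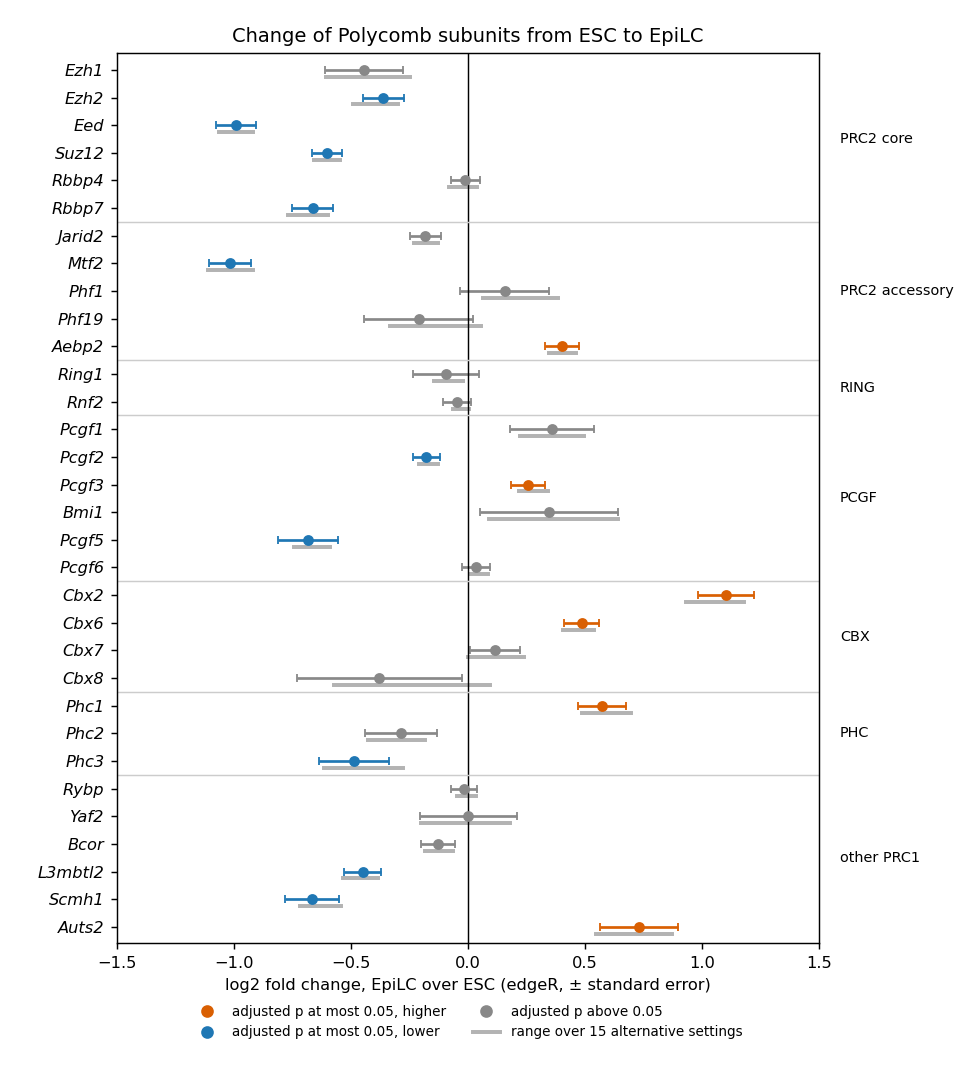
Log2 fold change of each subunit, EpiLC over ESC, from edgeR (point) with its standard error (bar), coloured by the call at an adjusted p of at most 0.05. The grey line under each point spans the values from 15 alternative settings. Eed and Mtf2 lie furthest to the left and Cbx2 furthest to the right.

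Of the 11 PRC2 subunits, 1 rose (9.09%, against 22.6% of all genes tested) and 5 fell (45.5%, against 22.8%), with a median log2 fold change of -0.36, and Ezh2 among the 5 was lost in 2 alternative settings. Of the 21 PRC1 subunits, 5 rose and 5 fell (23.8% each), with a median of -0.02. The difference between the complexes was not tested. Without ESC replicate 2 and EpiLC replicate 3, 5 subunits rose and 9 fell, against 3108 and 3080 of all genes. In addition, 11 of the 16 calls were made under every one of 15 alternative settings. These 11 were Eed, Suz12, Rbbp7, Mtf2, Pcgf5, L3mbtl2 and Scmh1, which fell, and Aebp2, Cbx2, Cbx6 and Phc1, which rose.

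The promoters of the subunits ranged from 0 to 54 CG dinucleotides. RefSeq promoter windows on GRCm38.p6, from 250 bases before to 50 bases after a transcript start, were matched for 27 of the 32 genes (37 windows). The entries not matched were Pcgf1, Cbx2, Rybp, Yaf2 and Auts2. The windows of the subunits held a median of 23 CG dinucleotides and 64.3% G and C, against 7 and 52.7% over 32851 windows of 27025 genes. These windows cover more genes than the 14468 tested. The subunits, all expressed here, were not set against genes matched for expression, so neither these values nor the motif percentages below show a trait particular to them. The letters CCAAT, searched on both strands, were in 40.5% of the windows of the subunits and in 37.4% of all windows. A form of the E2F motif, TTTCCCGC on either strand, was in windows of Suz12 and Phf19 (5.41% against 1.07% of all windows), and TTTGGCGC in that of Ezh2 (2.70% against 0.514%). The core of the SOX motif, CATTGT on either strand, was in windows of Bmi1, Cbx6 and Phc2 (8.11% against 12.6%). The 4 windows printed belong to the genes with the 2 largest falls and the 2 largest rises among called subunits that have a window. CG dinucleotides, the base pattern that CpG-binding accessory subunits of PRC2 are known to prefer, are in capitals. Binding of PRC2 to these promoters was not tested. Among genes that rose, the window of Phc1 has 9 and that of Cbx6 31, and among genes that fell, that of Eed has 17 and the Mtf2 window printed has 30, while the other Mtf2 window has 2.
Mtf2, chr5:108065424-108065723, plus strand, 30 CG: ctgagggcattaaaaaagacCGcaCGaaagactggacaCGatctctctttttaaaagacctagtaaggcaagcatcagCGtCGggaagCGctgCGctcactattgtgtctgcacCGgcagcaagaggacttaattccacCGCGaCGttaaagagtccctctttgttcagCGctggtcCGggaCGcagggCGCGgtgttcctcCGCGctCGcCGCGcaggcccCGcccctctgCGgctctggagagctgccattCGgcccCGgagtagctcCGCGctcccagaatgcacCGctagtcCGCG
Eed, chr7:89980927-89981226, minus strand, 17 CG: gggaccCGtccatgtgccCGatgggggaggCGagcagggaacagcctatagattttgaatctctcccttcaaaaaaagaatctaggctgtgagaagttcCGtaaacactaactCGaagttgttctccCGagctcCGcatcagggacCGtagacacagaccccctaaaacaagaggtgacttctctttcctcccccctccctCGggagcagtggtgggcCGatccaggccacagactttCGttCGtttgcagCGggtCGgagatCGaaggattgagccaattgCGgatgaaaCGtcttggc
Phc1, chr6:122340178-122340477, minus strand, 9 CG: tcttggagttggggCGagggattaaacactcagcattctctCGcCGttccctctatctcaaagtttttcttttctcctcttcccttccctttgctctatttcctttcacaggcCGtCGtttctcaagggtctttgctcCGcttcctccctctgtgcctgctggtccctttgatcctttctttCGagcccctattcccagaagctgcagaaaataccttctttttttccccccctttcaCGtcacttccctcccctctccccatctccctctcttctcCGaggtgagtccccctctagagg
Cbx6, chr15:79834284-79834583, minus strand, 31 CG: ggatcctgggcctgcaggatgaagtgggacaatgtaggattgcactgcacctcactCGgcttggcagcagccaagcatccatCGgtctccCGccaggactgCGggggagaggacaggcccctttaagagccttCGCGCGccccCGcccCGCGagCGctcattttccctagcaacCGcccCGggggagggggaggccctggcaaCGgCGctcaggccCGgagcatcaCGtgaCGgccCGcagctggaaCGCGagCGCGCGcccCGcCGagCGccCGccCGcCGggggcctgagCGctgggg

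In the PRC2 core, 4 of 6 subunits fell (66.7%, against 22.8% of all genes tested), of which Ezh2 was lost in 2 alternative settings, and the median log2 fold change was -0.52. Eed, the subunit that binds methylated H3K27 and stimulates the enzyme, lies on chromosome 7 (89954654-89980976). Its level was 221, 265 and 235 TPM in ESC replicates 1 to 3 and 125, 119.7 and 130 TPM in EpiLC replicates 1 to 3. The groups did not overlap, as was the case for 59.5% of all genes tested, and Eed was highest in ESC replicate 2. The mean was 239.9 ± 22.6 TPM (SD, n = 3) in ESCs and 125 ± 5.37 TPM in EpiLCs, with a log2 fold change of -0.99 (SE 0.085, edgeR adjusted p = 0.000267).

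Suz12, the scaffold of PRC2, was at 165, 148 and 166 TPM in the ESC libraries and at 107, 113 and 107 TPM in the EpiLC libraries. Every ESC library lay above every EpiLC library, and ESC replicate 2 was the lowest of the ESCs. The log2 fold change was -0.60 (SE 0.065, edgeR adjusted p = 0.00061). Ezh2, the main methyltransferase, was at 182, 158 and 187 TPM in ESCs and at 136, 138 and 151 TPM in EpiLCs. Its groups lay close to each other without overlapping, and its log2 fold change was -0.36 (SE 0.088, edgeR adjusted p = 0.0146). This call was lost without EpiLC replicate 1 or EpiLC replicate 2, with an adjusted p of up to 0.0677. Ezh1, the paralogue known from non-dividing cells, was at 16.4, 13.0 and 20.6 TPM in ESCs and at 12.1, 13.3 and 12.8 TPM in EpiLCs. ESC replicate 2 lay within the EpiLC range and the other ESC libraries above it, and the log2 fold change of -0.44 (SE 0.17) did not pass (edgeR adjusted p = 0.0667), whereas it passed without ESC replicate 2 and with DESeq2 (adjusted p down to 0.00702).

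The histone chaperones Rbbp4 and Rbbp7, which PRC2 shares with deacetylase and remodelling complexes, are given side by side. Rbbp7 was at 525, 478 and 467 TPM in ESCs and at 310.1, 297 and 354 TPM in EpiLCs, with a log2 fold change of -0.66 (SE 0.087, edgeR adjusted p = 0.00132). Rbbp4 was at 246, 239.7 and 252 TPM in ESCs and at 249, 243 and 266 TPM in EpiLCs, with a log2 fold change of -0.01 (SE 0.062, edgeR adjusted p = 0.884), a value whose sign turned under some settings. Rbbp7 was the most abundant of all subunits in ESCs, followed by Rbbp4 and Eed, whose levels did not differ beyond their spread. In EpiLCs Rbbp7 and Phc1 were level at the top. Summed over Ezh1, Ezh2, Eed and Suz12, the core amounted to 592 ± 14.7 TPM (SD, n = 3) in ESCs and 388 ± 10.9 TPM in EpiLCs. The 3 ESC sums (584, 584 and 609 TPM) all lay above the 3 EpiLC sums (379.9, 385 and 401 TPM). The TPM ratio of Eed to Ezh2 was 1.38 ± 0.260 in ESCs, with the highest value (1.68) in ESC replicate 2, and 0.884 ± 0.0317 in EpiLCs.

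**Figure D2:**
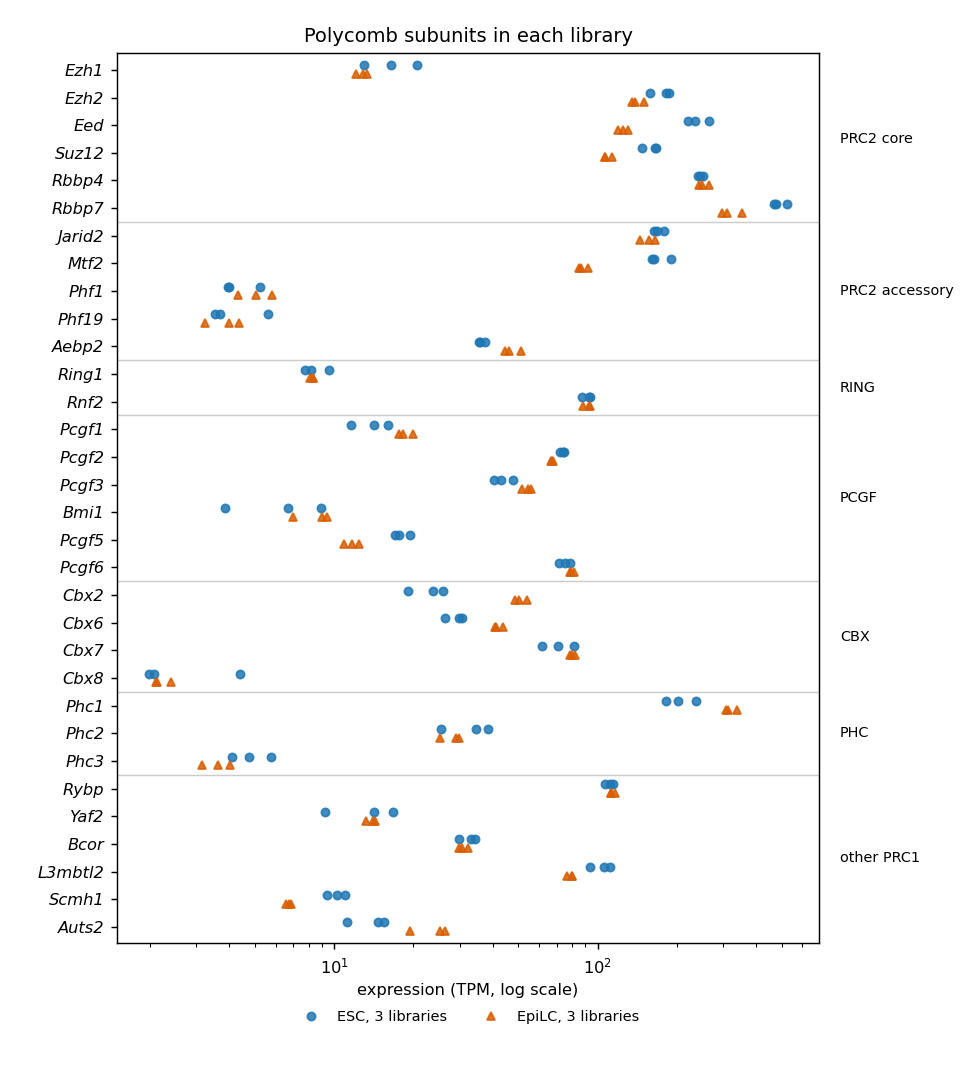
Expression of the 32 subunits in TPM (log scale) in each of the 3 ESC libraries (circles) and 3 EpiLC libraries (triangles), ordered by role. The groups lie apart for Eed, Suz12, Rbbp7, Mtf2, Cbx2, Cbx6 and Phc1, and they overlap for Rbbp4, Rnf2 and Rybp.

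The accessory subunits define alternative forms of PRC2, and Mtf2 and Aebp2 moved in opposite directions. Mtf2 belongs to the Polycomb-like proteins, which bind CpG-rich DNA and recruit PRC2, and lies on chromosome 5 (108065660-108109219). It was at 163, 161 and 191 TPM in ESCs and at 86.3, 85.3 and 92.4 TPM in EpiLCs. All ESC libraries were far above the EpiLC libraries, with a log2 fold change of -1.02 (SE 0.090, edgeR adjusted p = 0.000313). Its paralogues were low: Phf1 lay between 3.96 and 5.80 TPM and Phf19 between 3.22 and 5.62 TPM over the 6 libraries, and neither passed the test (log2 fold changes 0.16 and -0.21, edgeR adjusted p = 0.532 and 0.488).

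Aebp2 and Jarid2 mark the other form of PRC2 and carry it to nucleosomes that PRC1 has ubiquitinated. Aebp2 was at 37.2, 35.9 and 35.5 TPM in ESCs and at 51.3, 44.7 and 46.1 TPM in EpiLCs, so that every EpiLC library was higher. The log2 fold change was 0.40 (SE 0.073, edgeR adjusted p = 0.00481). Jarid2 was at 163, 169 and 179 TPM in ESCs and at 157, 165 and 145 TPM in EpiLCs. These groups overlapped, and the log2 fold change of -0.18 (SE 0.067) did not pass with edgeR (adjusted p = 0.0599) and lay at the threshold with DESeq2 (adjusted p = 0.0499). The summed level of Jarid2 and Aebp2 was 207 ± 7.17 TPM in ESCs and 203 ± 10.2 TPM in EpiLCs, whereas that of the 3 Polycomb-like genes was 180.4 ± 17.4 TPM and 96.9 ± 2.67 TPM (SD, n = 3). The TPM ratio of Mtf2 to Jarid2 was 1.007 ± 0.0556 in ESCs and 0.568 ± 0.0618 in EpiLCs, and that of Mtf2 to Aebp2 was 4.75 ± 0.546 and 1.86 ± 0.165.

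The ubiquitin ligases of PRC1 gave close values in both groups. Rnf2 was at 93.6, 93.2 and 87.6 TPM in ESCs and at 93.4, 88.2 and 93.2 TPM in EpiLCs, and its log2 fold change was -0.05 (SE 0.059, edgeR adjusted p = 0.532). Ring1 was at 9.58, 8.18 and 7.74 TPM in ESCs and at 8.07, 8.31 and 8.34 TPM in EpiLCs, with a log2 fold change of -0.10 (SE 0.14, edgeR adjusted p = 0.607). Rnf2 made up 91.5% ± 0.689 of the summed TPM of the pair in ESCs and 91.7% ± 0.329 in EpiLCs (SD, n = 3).

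The 6 PCGF genes, whose products decide which form of PRC1 a ligase enters, divided into 1 that rose (16.7%, against 22.6% of all genes tested), 2 that fell (33.3%, against 22.8%) and 3 that did not pass. Pcgf6, a subunit of a variant form with L3MBTL2 and MGA, was at 75.5, 78.8 and 71.5 TPM in ESCs and at 81.2, 79.5 and 78.7 TPM in EpiLCs (log2 fold change 0.03, SE 0.061, edgeR adjusted p = 0.672). Pcgf2, the main canonical PCGF protein of ESCs, was at 73.9, 71.9 and 74.5 TPM in ESCs and at 66.3, 67.3 and 67.7 TPM in EpiLCs. Its groups did not overlap, but the change was small (log2 fold change -0.18, SE 0.057, edgeR adjusted p = 0.0402), and the call was lost in 11 of 15 alternative settings with an adjusted p of up to 0.155. The replicate block was among them (adjusted p = 0.0955).

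Pcgf3 and Pcgf5, paralogues in closely related variant complexes, changed in opposite directions. Pcgf3 was at 43.0, 47.6 and 40.4 TPM in ESCs and at 54.5, 55.7 and 51.8 TPM in EpiLCs, with a log2 fold change of 0.26 (SE 0.073, edgeR adjusted p = 0.0271). Without ESC replicate 1, or without each of the EpiLC replicates in turn, Pcgf3 no longer passed (adjusted p up to 0.0912). Pcgf5 was at 17.1, 17.6 and 19.5 TPM in ESCs and at 11.6, 12.5 and 10.9 TPM in EpiLCs, with a log2 fold change of -0.68 (SE 0.13, edgeR adjusted p = 0.00527). Every ESC library of Pcgf5 lay above every EpiLC library. Pcgf1, the partner of the KDM2B and BCOR complex, was at 11.6, 14.2 and 16.1 TPM in ESCs and at 19.9, 18.2 and 17.6 TPM in EpiLCs. Although its groups did not overlap in TPM, the log2 fold change of 0.36 (SE 0.18) did not pass with edgeR (adjusted p = 0.139), and it passed with limma on TPM (adjusted p down to 0.0412). Bmi1, known for its role in stem cells of adult tissues, spread widely in ESCs (6.67, 8.90 and 3.86 TPM) and lay at 9.43, 6.99 and 8.98 TPM in EpiLCs (edgeR adjusted p = 0.364).

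Of the 4 CBX genes, Cbx2 and Cbx6 rose (50%, against 22.6% of all genes tested), and the rise of Cbx2 was the largest of the 32 subunits. Cbx2, which compacts chromatin and bridges nucleosomes, lies on chromosome 11 (119023019-119031275) and was at 25.8, 19.0 and 23.7 TPM in ESCs and at 48.6, 50.1 and 54.1 TPM in EpiLCs. The EpiLC libraries were tightly grouped and all far above the ESC libraries. The mean was 22.9 ± 3.48 TPM (SD, n = 3) in ESCs and 50.9 ± 2.86 TPM in EpiLCs, and edgeR's fitted rise was 2.15-fold (log2 fold change 1.10, SE 0.12, edgeR adjusted p = 0.000657). Cbx6 was at 26.4, 30.5 and 29.8 TPM in ESCs and at 41.2, 43.9 and 40.7 TPM in EpiLCs, without overlap, and edgeR's fitted rise was 1.40-fold (log2 fold change 0.49, SE 0.076, edgeR adjusted p = 0.00268).

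Cbx7, the CBX protein known as the dominant one of ESCs, remained the most abundant of the 4 in both groups. It was at 61.6, 71.0 and 81.3 TPM in ESCs and at 78.3, 82.4 and 79.7 TPM in EpiLCs, with overlapping groups (log2 fold change 0.12, SE 0.11, edgeR adjusted p = 0.408). Without ESC replicate 3, the highest of the ESCs, Cbx7 just passed the threshold as higher in EpiLCs (log2 fold change 0.24, edgeR adjusted p = 0.0494). Cbx8 was low, at 2.07, 4.40 and 1.98 TPM in ESCs and at 2.12, 2.40 and 2.11 TPM in EpiLCs. ESC replicate 2 alone stood above the others, and the sign of the log2 fold change of Cbx8 (-0.38, SE 0.35, edgeR adjusted p = 0.407) turned without it.

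The shares of the CBX genes in their family are given as values here, and the test of the Cbx7 share follows with those of the other families. The summed level of the 4 genes was 126 ± 10.5 TPM in ESCs and 175 ± 4.47 TPM in EpiLCs. Cbx7 held 53.2%, 56.8% and 59.4% of this sum in the ESC libraries and 46.0%, 46.1% and 45.1% in the EpiLC libraries. Its mean share was 56.5% ± 3.15 in ESCs and 45.7% ± 0.533 in EpiLCs (SD, n = 3), a difference of -10.7 percentage points. Cbx2 held 18.3% ± 3.62 and 29.1% ± 1.37, and Cbx6 held 23.0% ± 1.33 and 23.9% ± 0.779. The TPM ratio of Cbx2 to Cbx7 was 0.326 ± 0.0814 in ESCs and 0.636 ± 0.0376 in EpiLCs.

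**Figure D3:**
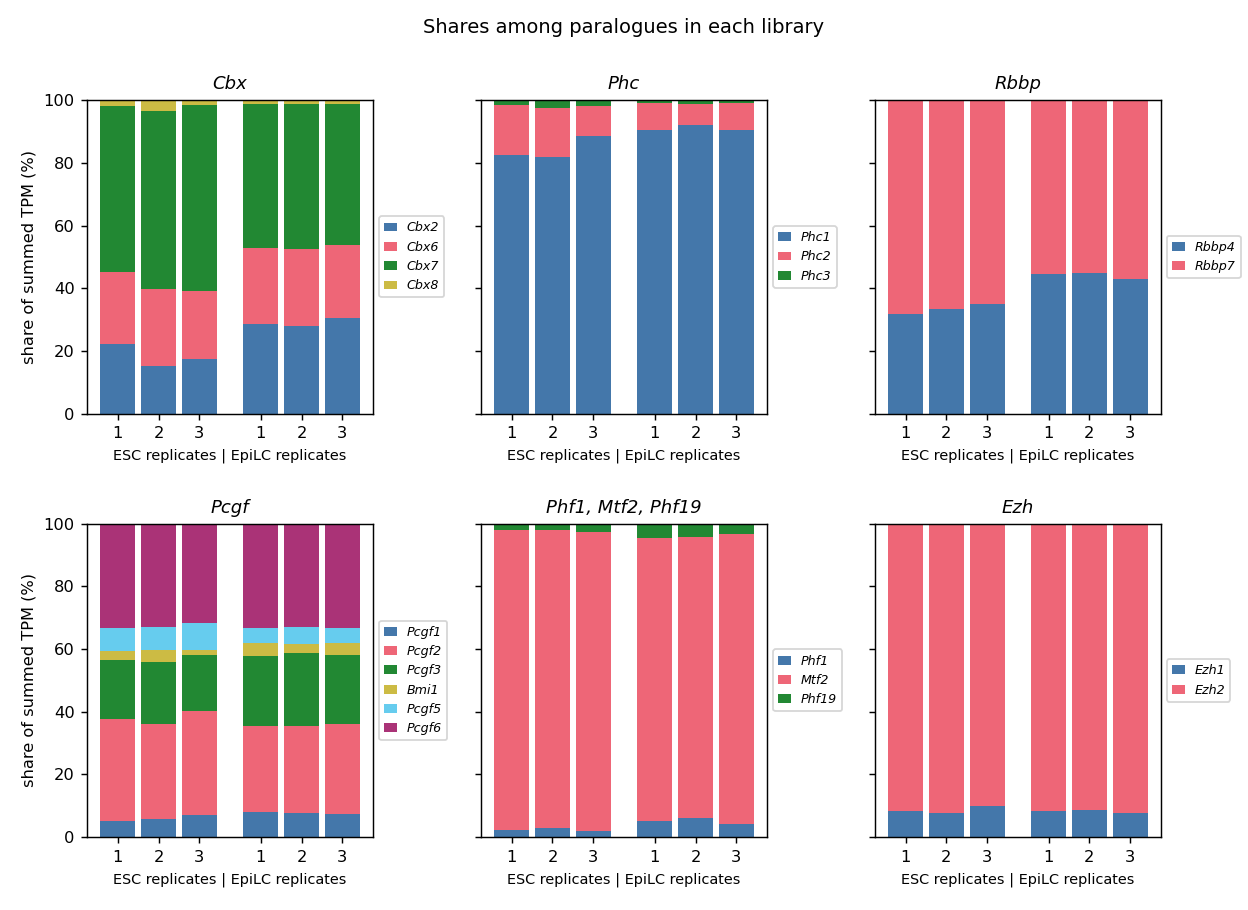
Share of each paralogue in the summed TPM of its family, in percent, with a bar for each of the 3 ESC and 3 EpiLC libraries. In the EpiLC libraries Cbx2, Phc1 and Rbbp4 take larger shares than in the ESC libraries, while Ezh2 holds 91.4% of its pair in ESCs and 91.7% in EpiLCs.

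The PHC genes encode the subunits that polymerise PRC1. Phc1, by far the most abundant of them, lies on chromosome 6 (122317731-122340227), 367.3 kb from Nanog, a naive pluripotency gene that moved the other way (324 ± 42.4 TPM in ESCs against 12.1 ± 9.08 TPM). Phc1 was at 202, 181 and 236 TPM in ESCs and at 313, 338 and 308 TPM in EpiLCs. All EpiLC libraries were above the ESC libraries, with a log2 fold change of 0.57 (SE 0.10, edgeR adjusted p = 0.00458), and in EpiLCs Phc1 was about as abundant as Rbbp7. Phc2 was at 38.5, 34.7 and 25.6 TPM in ESCs and at 29.0, 25.1 and 29.8 TPM in EpiLCs (log2 fold change -0.29, SE 0.15, edgeR adjusted p = 0.163), and it passed as lower without ESC replicate 3 (adjusted p = 0.0223). Phc3 was at 4.11, 5.77 and 4.76 TPM in ESCs and at 3.63, 4.03 and 3.16 TPM in EpiLCs. This small fall (log2 fold change -0.49, SE 0.15, edgeR adjusted p = 0.0348) was lost in 8 of 15 alternative settings, among them the fits without ESC replicate 2, without ESC replicate 3 and without each of the EpiLC replicates in turn, with an adjusted p of up to 0.132. Phc1 held 84.3% ± 3.74 of the summed TPM of the family in ESCs and 91.0% ± 0.934 in EpiLCs (SD, n = 3).

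Shares were compared for 1 gene in each of 8 paralogue families with two-sided exact permutation tests over libraries. With 3 libraries against 3 the smallest p this test can give is 0.1, so no share could pass 0.05. In 4 families the shares of the groups did not overlap and p was 0.1, with an adjusted p of 0.2 over the 8 families by the exact permutation test. These were Cbx7 among the CBX genes, Phc1 among the PHC genes, Mtf2 among the Polycomb-like genes (95.2% ± 0.333 in ESCs, 90.8% ± 1.47 in EpiLCs) and Rbbp4 against Rbbp7 (33.4% ± 1.55 and 44.2% ± 1.09). In the other 4 families the shares overlapped. The differences, as EpiLC minus ESC, were 0.33 percentage points for Ezh2 in the EZH pair, 0.23 for Rnf2 in the RING pair, 0.70 for Pcgf6 among the PCGF genes and -0.14 for Rybp against Yaf2. Each of these lay within 1 SD of the ESC libraries. The shares of the other PCGF genes were not tested. Pcgf2 held 31.8% ± 1.56 and 28.0% ± 0.712, Pcgf3 held 18.9% ± 1.02 and 22.5% ± 0.623, and Pcgf5 held 7.84% ± 0.688 and 4.87% ± 0.297 in ESCs and EpiLCs, without overlap of the libraries, and Pcgf1 held 6.04% ± 1.02 and 7.74% ± 0.372, also without overlap, whereas the shares of Bmi1 overlapped (2.79% ± 1.01 and 3.53% ± 0.541).

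Among the variant and other PRC1 subunits, 1 of 6 rose (16.7%, against 22.6% of all genes tested) and 2 fell (33.3%, against 22.8%). L3mbtl2, a chromatin reader of the Pcgf6 complex, was at 93.3, 111 and 106 TPM in ESCs and at 76.4, 80.0 and 80.0 TPM in EpiLCs (log2 fold change -0.45, SE 0.079, edgeR adjusted p = 0.00428). Scmh1, a homologue of the fly gene Sex comb on midleg, was at 10.2, 11.0 and 9.38 TPM in ESCs and at 6.55, 6.83 and 6.72 TPM in EpiLCs (log2 fold change -0.67, SE 0.11, edgeR adjusted p = 0.0039). Both were lower in every EpiLC library, and both were highest in ESC replicate 2 and stayed called without it. Auts2, which in neural cells joins PCGF3 or PCGF5 complexes and is linked to gene activation, was at 15.4, 11.2 and 14.6 TPM in ESCs and at 26.4, 19.4 and 25.2 TPM in EpiLCs. Its rise (log2 fold change 0.73, SE 0.17, edgeR adjusted p = 0.0117) just missed the threshold without ESC replicate 2 and EpiLC replicate 3 (adjusted p = 0.0507).

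Rybp, Yaf2 and Bcor gave overlapping groups. Rybp, which lets variant PRC1 bind the mark it makes, lay between 107 and 117 TPM over the 6 libraries (log2 fold change -0.02, SE 0.055, edgeR adjusted p = 0.817). Its paralogue Yaf2 lay between 9.21 and 16.7 TPM, and ESC replicates 1 and 3 were its highest and lowest libraries (edgeR adjusted p = 0.999). Bcor, the scaffold of the complex with PCGF1, lay between 29.9 and 34.1 TPM (log2 fold change -0.13, SE 0.072, edgeR adjusted p = 0.183).

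The subunits varied more among the ESC libraries than among the EpiLC libraries. The median coefficient of variation of TPM was 9.23% in ESCs and 4.67% in EpiLCs over the 32 subunits, and 13.8% and 7.65% over all genes tested. It was larger in ESCs for 28 of 32 subunits (87.5%) and for 74.0% of all genes tested. The order of the fibroblast markers, with ESC replicate 2 highest and ESC replicate 3 lowest, was found in 6 of 32 subunits (18.8%) and in 26.0% of all genes tested. Bmi1 and Cbx8 alone were more than 1 log2 unit higher in ESC replicate 2 than in ESC replicate 3, by 1.21 and 1.15, and neither was called.

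Several subunits lie close to each other in the genome (RefSeq, GRCm38.p6), and the differences between neighbours were not tested. Cbx2, which rose, lies 5.0 kb from Cbx8 (log2 fold change -0.38, not called) on chromosome 11. Cbx6, which rose, lies 81.5 kb from Cbx7 (log2 fold change 0.12, not called) on chromosome 15. Mtf2, which fell, lies 352.0 kb from Pcgf3, which rose, on chromosome 5. Pcgf2 lies 59.1 kb from Epop, a partner of PRC2, on chromosome 11, and both fell.

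Other genes of the pathway were taken from a list of 41 partners and opponents of the complexes, of which 40 could be tested, and 13 rose and 14 fell (67.5% called, against 45.4% of all genes tested). This background was not matched for expression level, on which the power of the test depends, and the list was chosen with earlier results of these data known. Without ESC replicate 2 and EpiLC replicate 3, 10 rose and 13 fell, and without EpiLC replicate 1 alone, 8 rose and 10 fell, while over all genes 2144 rose and 2100 fell of 14768 tested. Of 22 PRC1 partners tested, 8 rose (36.4%, against 22.6% of all genes tested) and 10 fell (45.5%, against 22.8%). Of 12 genes of the H2A deubiquitinases, which remove the PRC1 mark, 3 rose (25%) and 2 fell (16.7%). In the main fit the largest fall was that of Epop, an ESC-enriched partner of Mtf2-containing PRC2. It was at 154, 224 and 147 TPM in ESCs and at 63.5, 68.2 and 65.96 TPM in EpiLCs, and edgeR's fitted level was 2.75-fold lower in EpiLCs (log2 fold change -1.46, SE 0.16, edgeR adjusted p = 0.000626). Epop and Mtf2 thus both fell, as did Scml2, a low-level PRC1 partner (2.90, 2.40 and 2.18 TPM in ESCs, 1.07, 0.98 and 1.31 TPM in EpiLCs, log2 fold change -1.20, edgeR adjusted p = 0.00479). Without ESC replicate 2 and EpiLC replicate 3, the log2 fold change of Scml2 (-1.36) was larger in size than that of Epop (-1.26).

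AU022751, which RefSeq gives as a synonym of Ezhip, the inhibitor of PRC2, was near the detection limit at 0.51, 0.68 and 0.34 TPM in ESCs and at 1.41, 1.26 and 0.98 TPM in EpiLCs. Its log2 fold change was 1.18 (SE 0.32, edgeR adjusted p = 0.0213), and the call was lost without ESC replicate 1, ESC replicate 3, EpiLC replicate 1 or EpiLC replicate 2 (adjusted p up to 0.0888). The H3K27 demethylases, which remove the PRC2 mark, moved apart. Kdm6a was at 31.7, 32.3 and 33.2 TPM in ESCs and at 40.6, 42.9 and 38.6 TPM in EpiLCs (log2 fold change 0.28, SE 0.061, edgeR adjusted p = 0.0101). Kdm6b was at 38.1, 32.2 and 34.3 TPM in ESCs and at 21.6, 24.1 and 18.1 TPM in EpiLCs (log2 fold change -0.77, SE 0.11, edgeR adjusted p = 0.00198).

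**Figure D4:**
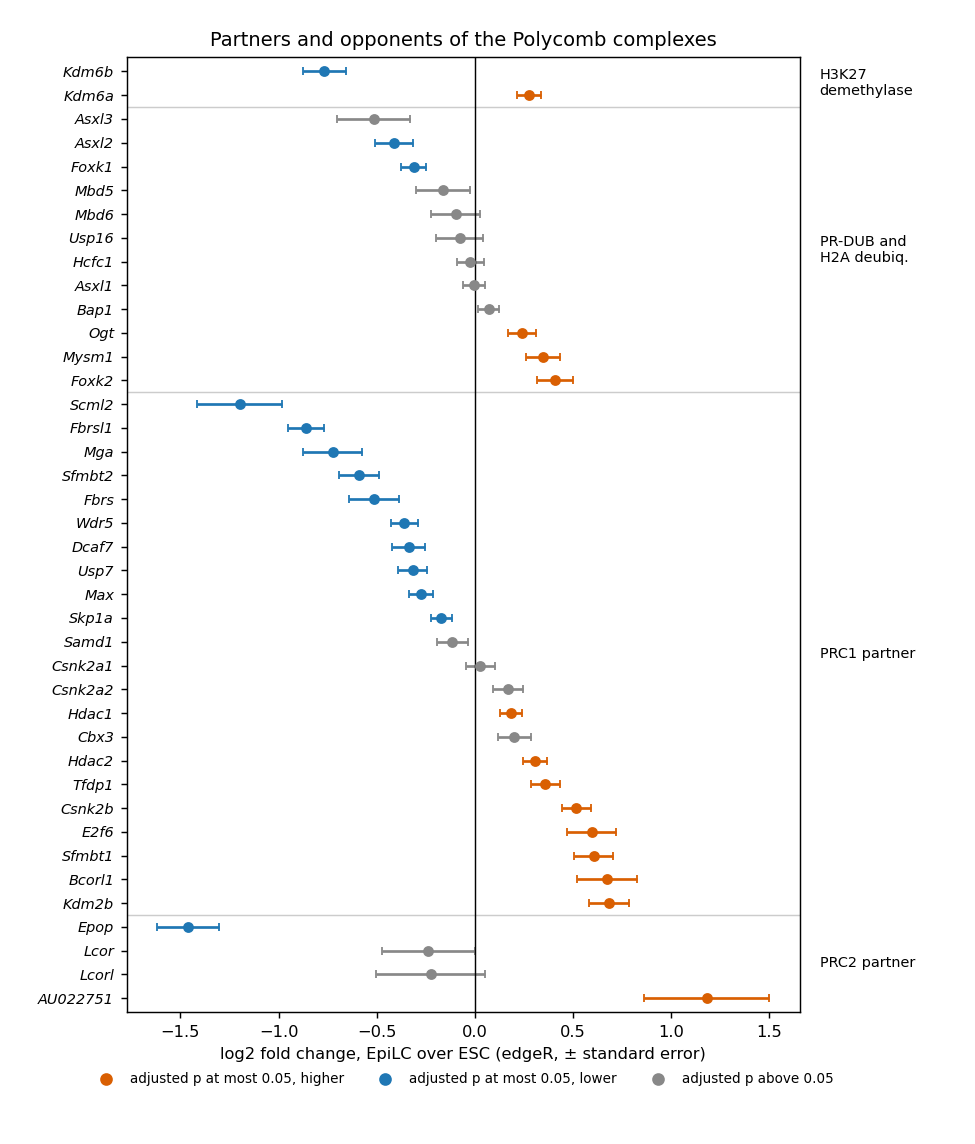
Log2 fold change, EpiLC over ESC, with its standard error (edgeR) for the 40 tested partners and opponents of the complexes, by group and coloured by the call at an adjusted p of at most 0.05. Epop and Scml2 lie furthest to the left and AU022751 furthest to the right, and the other called genes lie within 1 log2 unit of 0.

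Genes known as Polycomb targets in ESCs, mainly developmental regulators with the cell-cycle inhibitors Cdkn2a and Cdkn2b, were mostly very low. Of 24 such genes in the list, 15 had enough counts to be tested, 1 rose (6.67%, against 22.6% of all genes tested) and 8 fell (53.3%, against 22.8%), with a median log2 fold change of -1.44. Hand2 had 6, 3 and 2 counts and Pax9 3, 10 and 3 counts in EpiLCs, and Lmx1b had 3, 1 and 4 counts in ESCs. Each of these genes passed the count filter through the group where it was high, so its direction cannot be told apart from the filter. With at least 10 counts in every sample, 0 rose and 5 fell of the 10 genes left. Without ESC replicate 2 and EpiLC replicate 3, 1 rose and 7 fell, and the 1 that rose there was not Lmx1b, the gene that rose in the main fit. Without ESC replicate 2 or ESC replicate 3 alone, 2 rose. Gata6, an endoderm regulator, was at 14.96, 7.40 and 7.84 TPM in ESCs and at 0.46, 0.32 and 0.48 TPM in EpiLCs (log2 fold change -4.63, edgeR adjusted p = 0.000214). Gata4, Msx1, Hand2, Sox17, Pax9, Foxa2 and Hand1 also fell, with log2 fold changes of -3.20, -3.15, -2.78, -2.68, -2.61, -2.31 and -1.44. Single libraries moved several of these: without ESC replicate 1, Msx1 was at -2.41, Hand2 at -2.14 and Hand1 at -0.83, Pax9 was at -1.61 without ESC replicate 2 and at -3.38 without EpiLC replicate 2, and without EpiLC replicate 3 Foxa2 was at -3.18. The calls of Pax9 and Hand1 were lost in 6 of 14 and in 9 of 15 alternative settings. Lmx1b alone was called higher, from 0.25, 0.11 and 0.25 TPM to 2.08, 0.65 and 2.55 TPM (log2 fold change 2.95, edgeR adjusted p = 0.0117), and its call was lost without ESC replicate 2 and EpiLC replicate 3 (adjusted p = 0.065). Cdkn2a, the most abundant gene of the list, was at 12.45, 36.9 and 8.81 TPM in ESCs and at 34.39, 34.38 and 25.29 TPM in EpiLCs. It was not called (log2 fold change 0.71, edgeR adjusted p = 0.267), and ESC replicate 2 alone lay above the EpiLC libraries. Cdkn2b was not called either (log2 fold change -0.39, edgeR adjusted p = 0.677). The 6 primitive endoderm markers, of which Gata4, Sox17 and Foxa2 are also in the target list and Pdgfra among the fibroblast markers, summed to between 31.7 and 57.9 TPM in ESCs and to between 10.2 and 10.8 TPM in EpiLCs. By edgeR 4 of them were called lower (66.7%, against 22.8% of all genes tested) and 2 were not called. The sum of the 5 primitive streak markers also was lower in EpiLCs (124 to 407 TPM in ESCs, 8.15 to 62.0 TPM in EpiLCs). By edgeR 3 of these markers were called lower (60%, against 22.8% of all genes tested) and 2 were not called, and the highest log2 fold change among the 5 was 0.28. Their sum peaked in ESC replicate 1, as did Gata4, Gata6, Msx1, Hand1 and Hand2. Pax9 and Sox17 were highest in ESC replicate 2, which had the most fibroblast transcripts, and Foxa2 was at 5.01, 5.19 and 5.27 TPM in the ESC libraries. The part of these cell types in the fall of the target genes was not tested.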

How the data were processed

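Polyadenylated RNA of 3 ESC and 3 EpiLC cultures was sequenced as stranded single-end reads of 76 nt. The sample labels give 48 h for the EpiLCs. The results of the study also describe EpiLC identity after 48 h in FGF and LGK974, whereas its culture methods give 72 h. According to the methods and the submitters' processing notes, reads were trimmed with cutadapt 1.16, mapped with STAR 2.5.2a and quantified with RSEM 1.3.0 against mm10 RefSeq genes. The authors deposited expected counts, in which RSEM divides reads that map to several genes, and between 4.27% and 4.65% of these were fractional. TPM, scaled for transcript length and library, were deposited beside them.

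Expected counts were rounded, filtered with filterByExpr (14468 of 24736 genes kept), normalized by TMM and tested over all genes, without a block, by the quasi-likelihood F-test of edgeR 4.0.16 under R 4.3.3. The threshold was a Benjamini-Hochberg adjusted p of 0.05, and an absolute log2 fold change above 1 was counted separately. Levels and shares among paralogues were taken from TPM. Promoter windows and gene positions came from RefSeq (GRCm38.p6). Named were all subunits, the H3K27 demethylases, and the genes of the partner and target lists that passed the test with an absolute log2 fold change above 1. Cdkn2a and Cdkn2b of the target list were named in addition. The rule for the subunits uses gene symbols only, but the subunits and all lists were chosen with earlier results of these data known. The alternatives were DESeq2 1.42.0, other normalizations and filters, a replicate block, omission of libraries, and limma 3.58.1 on TPM. The study's methods name DESeq2 1.16.1.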

Additional observations from a re-analysis of the deposited data

How the results depend on the processing

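Of the 16 called subunits, 11 were called in all 15 alternative settings. Pcgf2, Phc3, Pcgf3, Ezh2 and Auts2 were lost in 11, 8, 4, 2 and 1 of them, and Ezh1, Jarid2, Cbx7, Phc2 and Pcgf1 were gained in at least 1. Leaving out each replicate in turn, between 5 and 7 subunits rose and between 7 and 10 fell, while over all genes between 2144 and 3572 rose and between 2100 and 3609 fell, the lowest counts being those without EpiLC replicate 1. In the same fits, between 8 (without EpiLC replicate 1) and 13 of the other Polycomb genes rose and between 10 and 14 fell, and among the target genes 1 or 2 rose (2 without ESC replicate 2 or ESC replicate 3) and 7 or 8 fell. With at least 10 counts in every sample, 0 target genes rose and 5 fell among the 10 left to test, and limma on log2(TPM + 1) called 2 higher. The causes were not tested. Without ESC replicate 2 and EpiLC replicate 3 together, 5 subunits rose and 9 fell.

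The replicate numbers are shared by both groups. The deviations of same-numbered libraries from their group means correlated by 0.0067, 0.186 and 0.171. ESC replicates 2 and 3 correlated best with the EpiLC library of their own number, whereas ESC replicate 1 correlated best with EpiLC replicate 3 (0.0836). With 3 libraries a group these values cannot decide whether the numbers mark pairs. With the replicate block 6 subunits rose and 9 fell, and over all genes 2979 rose and 3106 fell. Pcgf2 (log2 fold change -0.18, adjusted p = 0.0955) was the only named subunit whose call changed under the block.

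No called subunit changed sign. Signs turned for 6 subunits that were not called. Rbbp4 turned with upper-quartile normalization (0.014), no filter (0.0025), limma on log2(TPM + 1) (0.0382) and on log2(TPM + 0.1) (0.0383), and without ESC replicate 3 (0.0201), EpiLC replicate 1 (0.0025) or EpiLC replicate 2 (0.0303), its range over fits that leave out a single replicate being -0.054 to 0.0303. Rybp turned with upper-quartile normalization (0.0081), without ESC replicate 3 (0.0213, range -0.048 to 0.0213) and with limma (0.0352 and 0.0355), and Rnf2 with limma (0.0026 in both). Phf19 turned without ESC replicate 3 (0.056, range -0.33 to 0.056), and Cbx8 turned without ESC replicate 2 (0.068, range -0.57 to 0.068) and without ESC replicate 2 and EpiLC replicate 3 together (0.092). Yaf2 turned with DESeq2 (-0.00073), with DESeq2 size factors (-0.0074), without ESC replicate 3 (-0.20) and without EpiLC replicate 3 (-0.028), with a range of -0.20 to 0.18. With shares of expected counts, the difference was -3.03 percentage points for Mtf2 and -0.087 for Pcgf6, which turned its sign. Leaving out each replicate, the difference lay between -12.4 and -9.25 for Cbx7, 5.38 and 8.81 for Phc1, 9.94 and 11.5 for Rbbp4, -5.25 and -3.87 for Mtf2, 0.23 and 0.98 for Pcgf6, -0.32 and 0.81 for Ezh2, -0.16 and 0.45 for Rnf2, and -1.28 and 1.51 for Rybp. The 3 libraries a group limit all tests, and 30 of 32 subunits had at least 100 counts in every library.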
